A study of Mus musculus with 12 samples.

Results

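Mitosis is carried out by a set of proteins that cells make mostly when they are about to divide, and 44 genes that encode such proteins were followed through the count table of this study, which holds 21956 genes. The 44 genes were chosen by name, as mitotic kinases, cyclins and their degradation machinery, kinesin motors, spindle proteins, kinetochore and passenger proteins, chromosome structure proteins and cytokinesis proteins, and all 44 symbols were found in the table. The choice was made with earlier results of these data known, and Pbk, Ckap2 and Ckap2l had been named in an earlier report. The mRNA came from mouse brain tissue beside the hematoma of an intracerebral hemorrhage (ICH), induced by collagenase in the right striatum, or from sham-operated mice. There were 4 groups of 3 libraries each: Sham-Fabp4fl/fl, Sham-Fabp4CKO, ICH-Fabp4fl/fl and ICH-Fabp4CKO, and the ICH tissue was taken 48 h after surgery and cut into 1 mm slices. Mice of every group carried floxed alleles of Fabp4, the gene of a fatty acid-binding protein. The CKO mice carried in addition a tamoxifen-inducible Cre under the Tmem119 promoter, a microglial promoter, received tamoxifen on 7 consecutive days and were operated on 14 days after the last injection. Whether the Fabp4fl/fl mice received tamoxifen, and the age of the floxed mice, are not given in the sources used here. The questions were which of the 44 genes changed after ICH in each genotype, and whether the level after ICH differed between the genotypes.

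Cells enter mitosis when Cdk1 bound to cyclin B becomes active, and the kinases it switches on help to condense the chromosomes and build a bipolar spindle. Kinetochores then attach the chromosomes to spindle microtubules, and a checkpoint holds the cell until every chromosome is attached. The anaphase-promoting complex (APC/C) with Cdc20 then marks cyclin B and other proteins for destruction, and the chromosomes part and the cell divides. Most cells of the adult brain do not divide, while microglia, infiltrating leukocytes, endothelial cells, astrocytes and oligodendrocyte precursors can do so after injury. Many mitosis genes are transcribed together late in the cell cycle through a cell cycle homology region (CHR) and CCAAT boxes in their promoters, which are bound by the DREAM and MuvB complexes and by NF-Y.

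The promoters are shown for the letters that many of these genes share. RefSeq promoters (build GRCm38.p6) of 300 bases, from 250 before to 50 after the transcription start, were matched by symbol for 37 of the 44 genes, and the start listed at the top was used for the genes with several. Ccna2, Tpx2, Aurkb, Kif20a, Incenp, Pbk and Dlgap5 had no entry. Either spelling of the CHR, TTTGAA or TTCGAA, was present on one or the other strand in 30 of 37 member promoters (81.1%), against 5254 of 27025 promoters in the RefSeq table (19.4%). A CCAAT box on either strand was present in 28 of 37 (75.7%), against 10248 of 27025 (37.9%). At least 2 CCAAT boxes stood in 19 of 37 (51.4%), against 3286 of 27025 (12.2%), and a CHR together with at least 2 CCAAT boxes in 18 of 37 (48.6%), against 656 of 27025 (2.43%). The stretches printed here run from 150 bases before to 20 after the start, 5′ to 3′ on the strand of the gene, with CHR and CCAAT letters of either strand in capitals; a base can belong to both motifs. Ccnb2, Cdk1, Top2a and Hmmr were chosen as promoters with several matches, Ckap2 as the gene with the largest genotype difference after ICH, and Anln as the gene that did not pass the test for ICH. Each stands at the coordinates given with it.
Ccnb2, chr9:70421535-70421704, minus strand: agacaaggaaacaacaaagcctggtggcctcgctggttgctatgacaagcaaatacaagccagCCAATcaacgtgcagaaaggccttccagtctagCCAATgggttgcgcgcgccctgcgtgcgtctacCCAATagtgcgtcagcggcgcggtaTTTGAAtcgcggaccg
Cdk1, chr10:69352893-69353062, minus strand: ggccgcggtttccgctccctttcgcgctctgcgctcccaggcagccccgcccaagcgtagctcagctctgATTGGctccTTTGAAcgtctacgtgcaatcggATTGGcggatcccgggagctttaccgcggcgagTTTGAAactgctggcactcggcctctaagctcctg
Top2a, chr11:99024170-99024339, minus strand: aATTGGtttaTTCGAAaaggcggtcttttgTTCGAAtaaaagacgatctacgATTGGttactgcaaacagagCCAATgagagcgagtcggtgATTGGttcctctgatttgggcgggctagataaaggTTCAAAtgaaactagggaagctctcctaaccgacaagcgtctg
Hmmr, chr11:40733418-40733587, minus strand: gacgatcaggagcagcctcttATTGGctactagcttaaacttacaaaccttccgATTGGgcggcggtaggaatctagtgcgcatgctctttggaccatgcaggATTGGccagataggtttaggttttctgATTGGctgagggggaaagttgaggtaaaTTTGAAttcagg
Ckap2, chr8:22185800-22185969, minus strand: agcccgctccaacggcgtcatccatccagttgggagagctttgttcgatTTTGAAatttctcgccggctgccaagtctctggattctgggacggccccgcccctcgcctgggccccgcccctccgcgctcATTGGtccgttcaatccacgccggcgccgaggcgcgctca
Anln, chr9:22389187-22389356, minus strand: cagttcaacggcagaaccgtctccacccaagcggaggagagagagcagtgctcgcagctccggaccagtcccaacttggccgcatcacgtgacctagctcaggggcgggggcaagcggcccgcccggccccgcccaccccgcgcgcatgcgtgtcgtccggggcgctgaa
The stretch of Ccnb2 held 3 CCAAT boxes and 1 CHR, that of Cdk1 2 of each, that of Top2a 4 CCAAT boxes and 3 CHRs and that of Hmmr 4 CCAAT boxes and 1 CHR. The stretch of Ckap2 held 1 of each. The stretch of Anln held neither, while 2 CHR matches lay further downstream, within the 300 bases. Birc5, Melk, Ncaph, Nuf2 and Nusap1 had neither motif in the 300 bases and rose after ICH all the same. A match is a run of letters and was not tested as a binding site.

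Total counts per library ranged from 15650822 to 22406226. Levels are given as CPM, the counts of a gene scaled to a common library size, with library sizes scaled by the TMM method over all 12 libraries, and differences as log2 fold changes from edgeR's quasi-likelihood F-test with Benjamini-Hochberg adjustment over all genes tested. Fabp4 had 2, 1 and 2 reads in Sham-Fabp4fl/fl, 0 in each Sham-Fabp4CKO library, 46, 63 and 24 in ICH-Fabp4fl/fl and 5, 3 and 10 in ICH-Fabp4CKO. Library 1 of ICH-Fabp4CKO had 1 read from 4 Y-linked genes (Ddx3y, Uty, Kdm5d and Eif2s3y), where the other libraries had 1302 to 2251, so that library stood apart from the rest. Drd1, a dopamine receptor gene of striatal neurons, was present in every library, at 52.2 to 197 CPM in sham tissue and 38.1 to 132 CPM after ICH. Slc17a7, another of the neuron markers, varied widely. It was at 272, 397 and 59.5 CPM in Sham-Fabp4fl/fl and 83.6, 79.9 and 36.5 CPM in Sham-Fabp4CKO. After ICH it was at 8.21, 7.32 and 35.0 CPM in Fabp4fl/fl and 68.7, 387 and 83.9 CPM in Fabp4CKO. Whether the tissue taken differed between libraries was not tested. The labels number the libraries without saying how the mice were related, and the p-values measure only the spread between these samples. In bulk tissue, fewer cells of a type and less RNA per cell cannot be told apart.

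After ICH, nearly the whole set rose from low levels. In Fabp4fl/fl mice 43 of the 44 genes were higher after ICH than after sham operation and 0 were lower, against 26.2% of all 14719 genes tested that were higher. Aurkb, the kinase of the chromosomal passenger complex, had the largest change at a log2 fold change of 6.32 and Incenp, its partner in that complex, the smallest among the 43 at 1.97. The median over the 44 genes was 4.47, a 22.1-fold difference, beside 0.02 over all genes tested. The 3 ICH libraries lay above the 3 sham libraries without overlap for 43 genes, against 33% of all genes tested. Anln, at a log2 fold change of 0.71 (SE 0.28), did not pass the test (adjusted p = 0.0693), though it did in some of the alternative fits described at the end.

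In Fabp4CKO mice the same comparison again gave 43 genes that were higher and 0 that were lower, against 24.5% of all 14737 genes tested, with Anln as the exception once more (0.20, SE 0.13, adjusted p = 0.227). The log2 fold changes of the 43 ran from 1.35 for Racgap1, a cytokinesis gene, to 5.18 for Birc5, which encodes survivin, and their adjusted p-values from 0.00549 to 0.0433. The median over the 44 genes was 3.65, a 12.5-fold difference, beside 0.01 over all genes tested. The groups did not overlap for 42 genes, against 32.1% of all genes tested; Melk and Anln overlapped. These calls lay closer to the threshold than those in Fabp4fl/fl. Leaving out any 1 of the 3 sham libraries left 2 genes called (Pbk and Ckap2), and the share of all genes called as higher fell with it, to between 4.69% and 5.32%. Leaving out ICH-Fabp4CKO library 1 left 15 (9.63% of all genes), leaving out library 3 left 36 (15.8%) and leaving out library 2 left 43 (34.8%). In each of these fits 43 genes were higher at an unadjusted p under 0.05. The share of all genes at that level was not taken for these fits. With no library left out, 4460 of all 14737 genes tested were higher at it.

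**Figure D1:**
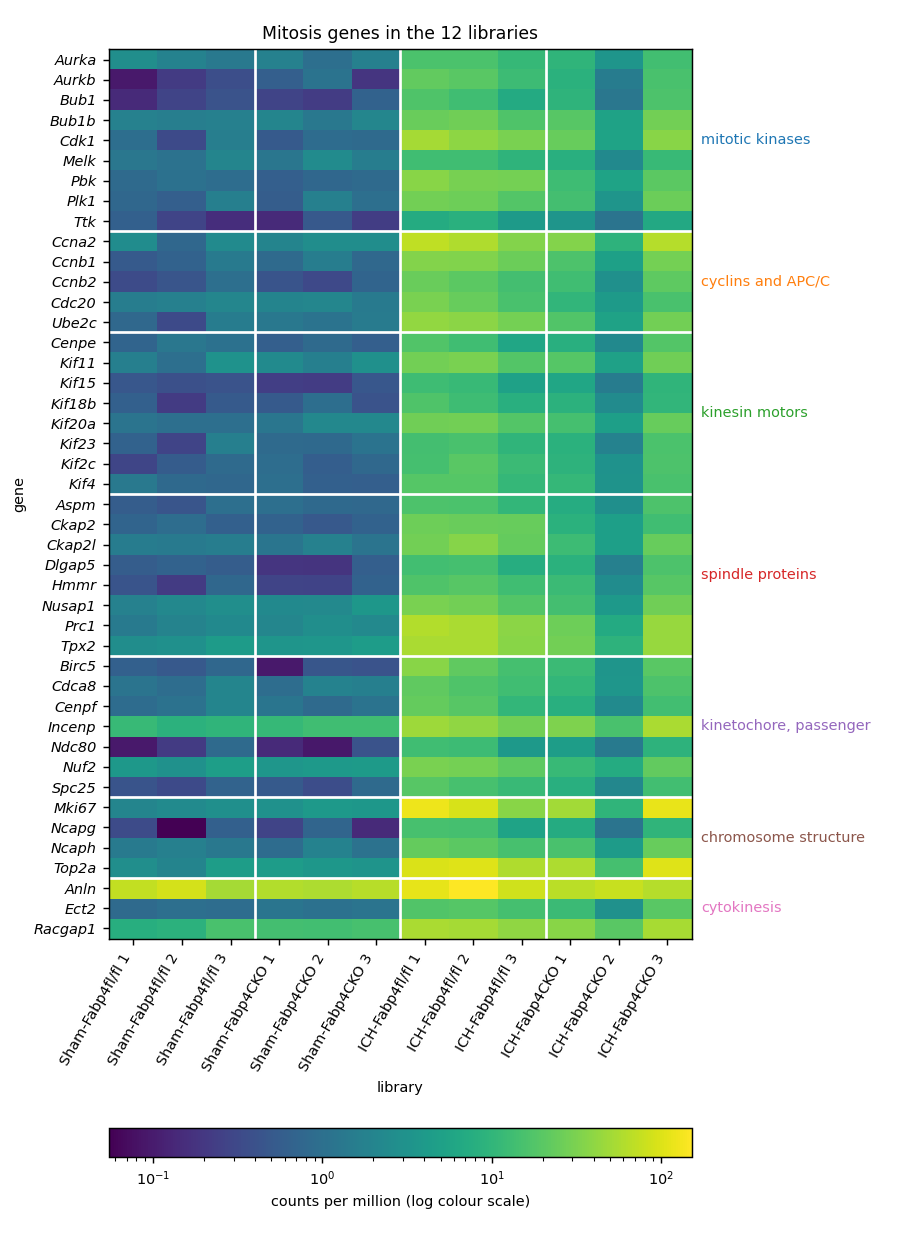
Level of each of the 44 mitosis genes (vertical axis, grouped by role) in each of the 12 libraries (horizontal axis), in CPM on a log colour scale. The 6 ICH columns are brighter than the 6 sham columns for 42 genes, Anln is bright throughout, and library 2 of ICH-Fabp4CKO is the darkest ICH column for 43 genes. The shares of all genes with these orders were not taken.

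The sum over the 43 genes other than Anln shows the size of the change. It was 70.8 ± 15.8 CPM in Sham-Fabp4fl/fl, 81.7 ± 6.002 in Sham-Fabp4CKO, 1123 ± 292 in ICH-Fabp4fl/fl and 679 ± 475 in ICH-Fabp4CKO (mean ± SD, n = 3 each), so the ICH mean was 15.9 times the sham mean in Fabp4fl/fl and 8.30 times in Fabp4CKO. The libraries read 65.2, 58.5 and 88.7 CPM in Sham-Fabp4fl/fl and 74.9, 84.0 and 86.2 in Sham-Fabp4CKO. They read 1347, 1229 and 792 CPM in ICH-Fabp4fl/fl and 675, 205.5 and 1155.5 in ICH-Fabp4CKO. The ICH-Fabp4CKO libraries were thus spread over a 5.62-fold range, against 1.70-fold in ICH-Fabp4fl/fl, and library 3 of ICH-Fabp4CKO lay between library 2 and library 3 of ICH-Fabp4fl/fl. Even the lowest ICH library was at 2.52 times the mean of its sham group.

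Within each ICH group nearly all of the 44 genes had the same lowest library, while the highest of the 6 ICH libraries differed between genes. How many of all genes share these orders was not counted. Library 2 of ICH-Fabp4CKO was the lowest of the 6 ICH libraries for 43 of 44 genes, with Anln as the exception, and the ICH-Fabp4CKO libraries stood in the order 2, 1, 3 from low to high for 43. Library 3 of ICH-Fabp4fl/fl was the lowest of its group for all 44. The highest of the 6 ICH libraries was library 1 of ICH-Fabp4fl/fl for 27 genes, library 2 of that group for 8 and library 3 of ICH-Fabp4CKO for 9. The 9 were Bub1b, Kif23, Cenpe, Hmmr, Dlgap5, Incenp, Top2a, Ncaph and Ect2. Every ICH library lay above every sham library, of either genotype, for 42 genes, the exceptions being Melk and Anln. The share of all genes without overlap was taken only within a genotype, at 33% in Fabp4fl/fl and 32.1% in Fabp4CKO.

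All 9 mitotic kinases rose after ICH in both genotypes, with a median log2 fold change of 4.57 in Fabp4fl/fl and 3.71 in Fabp4CKO. Cdk1, the kinase that starts mitosis, was at 0.957, 0.331 and 1.63 CPM in Sham-Fabp4fl/fl and 0.520, 0.907 and 0.843 CPM in Sham-Fabp4CKO, and at 52.8, 39.2 and 30.7 CPM in ICH-Fabp4fl/fl and 24.4, 5.49 and 37.3 CPM in ICH-Fabp4CKO. All ICH libraries stood above all sham libraries, and library 2 of ICH-Fabp4CKO stood far below the other two ICH-Fabp4CKO libraries. The change was a log2 fold change of 5.40 (SE 0.47, adjusted p = 0.000397) in Fabp4fl/fl and 4.89 (SE 0.77, adjusted p = 0.00915) in Fabp4CKO. Ttk, a kinase of the spindle checkpoint and the kinase with the lowest ICH-Fabp4fl/fl level per exon length, was at 0.622, 0.276 and 0.158 CPM in Sham-Fabp4fl/fl and 0.142, 0.499 and 0.234 CPM in Sham-Fabp4CKO, and at 7.09, 8.47 and 4.09 CPM in ICH-Fabp4fl/fl and 3.39, 1.17 and 6.66 CPM in ICH-Fabp4CKO. Its groups were separated in the same way, with changes of 4.18 (SE 0.53, adjusted p = 0.00117) in Fabp4fl/fl and 3.66 (SE 0.78, adjusted p = 0.0192) in Fabp4CKO.

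Pbk encodes a MAP kinase kinase-like enzyme that is active in mitotic cells, and it was the kinase whose ICH libraries did not overlap between the genotypes. It was at 0.861, 1.05 and 0.946 CPM in Sham-Fabp4fl/fl and 0.615, 0.771 and 0.843 CPM in Sham-Fabp4CKO, and at 37.2, 29.8 and 28.8 CPM in ICH-Fabp4fl/fl and 12.8, 5.49 and 20.8 CPM in ICH-Fabp4CKO. The 3 ICH-Fabp4CKO libraries all lay under the 3 ICH-Fabp4fl/fl libraries, and both ICH groups lay above both sham groups. The changes after ICH were 5.08 (SE 0.21, adjusted p = 0.000253) in Fabp4fl/fl and 4.13 (SE 0.54, adjusted p = 0.00636) in Fabp4CKO. The genotype difference after ICH was -1.30 (SE 0.45, adjusted p = 0.355), which does not pass the threshold.

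Aurkb and Bub1 were close to absent in sham tissue and were left out of the sham genotype test by the filter on low counts. Aurkb was at 0.0957, 0.221 and 0.368 CPM in Sham-Fabp4fl/fl and 0.615, 1.13 and 0.187 CPM in Sham-Fabp4CKO, and at 22.4, 20.02 and 12.6 CPM in ICH-Fabp4fl/fl and 8.67, 1.55 and 15.8 CPM in ICH-Fabp4CKO. Its sham counts were 2, 4 and 7 reads in Fabp4fl/fl and 13, 25 and 4 in Fabp4CKO, a range that overlapped between genotypes. The changes were 6.32 (SE 0.44, adjusted p = 0.000305) in Fabp4fl/fl and 3.74 (SE 0.97, adjusted p = 0.0318) in Fabp4CKO. Bub1, a checkpoint kinase at kinetochores, was at 0.144, 0.276 and 0.420 CPM in Sham-Fabp4fl/fl and 0.284, 0.227 and 0.656 CPM in Sham-Fabp4CKO, and at 17.3, 13.3 and 7.07 CPM in ICH-Fabp4fl/fl and 9.45, 1.28 and 16.8 CPM in ICH-Fabp4CKO. Libraries 1 and 3 of ICH-Fabp4CKO lay within the range of ICH-Fabp4fl/fl and library 2 was below it, and the changes were 5.48 (SE 0.51, adjusted p = 0.000421) in Fabp4fl/fl and 4.55 (SE 1.01, adjusted p = 0.0209) in Fabp4CKO. Among the other kinases, chosen after their values were seen, Plk1, which matures centrosomes and helps to build the spindle, changed by 4.57 (SE 0.39) in Fabp4fl/fl and 3.71 (SE 0.81) in Fabp4CKO, Aurka, the spindle pole kinase, by 2.88 (SE 0.31) and 2.58 (SE 0.54), Bub1b, which encodes the checkpoint protein BubR1, by 3.74 (SE 0.24) and 3.29 (SE 0.63), and Melk, a kinase of dividing and progenitor cells, by 3.06 (SE 0.30) and 2.07 (SE 0.61).

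The 5 genes for cyclins and APC/C partners all rose, with medians of 5.06 in Fabp4fl/fl and 3.88 in Fabp4CKO. Ccna2 encodes cyclin A2, which acts from DNA replication to the entry into mitosis, and was at 2.63, 0.773 and 2.47 CPM in Sham-Fabp4fl/fl and 1.99, 2.68 and 2.67 CPM in Sham-Fabp4CKO, and at 71.5, 59.5 and 34.8 CPM in ICH-Fabp4fl/fl and 35.2, 9.12 and 63.3 CPM in ICH-Fabp4CKO. Libraries 1 and 3 of ICH-Fabp4CKO were within the range of ICH-Fabp4fl/fl and library 2 was far below it. The changes were 4.82 (SE 0.47, adjusted p = 0.000519) in Fabp4fl/fl and 3.88 (SE 0.71, adjusted p = 0.0124) in Fabp4CKO. Ccnb2, a cyclin B partner of Cdk1 whose promoter carried 3 CCAAT boxes, was at 0.335, 0.442 and 0.999 CPM in Sham-Fabp4fl/fl and 0.426, 0.318 and 0.703 CPM in Sham-Fabp4CKO, and at 24.5, 20.3 and 14.1 CPM in ICH-Fabp4fl/fl and 13.3, 2.93 and 21.1 CPM in ICH-Fabp4CKO. Library 3 of ICH-Fabp4CKO was within the range of ICH-Fabp4fl/fl and the others below it, and the changes were 5.06 (SE 0.43, adjusted p = 0.000363) in Fabp4fl/fl and 4.69 (SE 0.81, adjusted p = 0.0111) in Fabp4CKO. Ccnb1, the other cyclin B, changed by 5.20 (SE 0.36) in Fabp4fl/fl and 3.96 (SE 0.70) in Fabp4CKO.

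Cdc20, which activates the APC/C, and Ube2c, its ubiquitin-conjugating enzyme, were named after their values were seen. Cdc20 was at 1.58, 1.71 and 2.10 CPM in Sham-Fabp4fl/fl and 1.94, 2.09 and 1.45 CPM in Sham-Fabp4CKO, and at 30.9, 23.9 and 15.6 CPM in ICH-Fabp4fl/fl and 10.2, 4.11 and 15.6 CPM in ICH-Fabp4CKO, and Ube2c was at 0.813, 0.331 and 1.52 CPM in Sham-Fabp4fl/fl and 1.32, 1.13 and 1.499 CPM in Sham-Fabp4CKO, and at 42.6, 38.8 and 28.9 CPM in ICH-Fabp4fl/fl and 17.5, 5.28 and 27.9 CPM in ICH-Fabp4CKO. For Ube2c no ICH-Fabp4CKO library reached the lowest ICH-Fabp4fl/fl library, while for Cdc20 library 3 of ICH-Fabp4CKO equalled library 3 of ICH-Fabp4fl/fl within rounding. The changes of Ube2c were 5.37 (SE 0.44, adjusted p = 0.000352) in Fabp4fl/fl and 3.68 (SE 0.62, adjusted p = 0.0104) in Fabp4CKO.

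All 8 kinesin motors rose, with medians of 4.27 in Fabp4fl/fl and 3.57 in Fabp4CKO. Kif11, the motor that pushes the spindle poles apart, was at 1.67, 0.994 and 3.10 CPM in Sham-Fabp4fl/fl and 2.41, 1.68 and 2.90 CPM in Sham-Fabp4CKO, and at 28.1, 30.7 and 18.0 CPM in ICH-Fabp4fl/fl and 19.0, 5.12 and 27.4 CPM in ICH-Fabp4CKO. The ICH libraries were again all above the sham libraries, and the changes were 3.75 (SE 0.42, adjusted p = 0.000733) in Fabp4fl/fl and 2.89 (SE 0.62, adjusted p = 0.0194) in Fabp4CKO. Kif15, which can take over from Kif11 and had the lowest ICH-Fabp4fl/fl level per exon length of the motors, was at 0.479, 0.387 and 0.420 CPM in Sham-Fabp4fl/fl and 0.236, 0.227 and 0.468 CPM in Sham-Fabp4CKO, and at 12.8, 11.5 and 5.15 CPM in ICH-Fabp4fl/fl and 5.93, 1.55 and 9.82 CPM in ICH-Fabp4CKO. Its sham counts were between 5 and 10 reads in every library. The changes were 4.51 (SE 0.44, adjusted p = 0.000517) in Fabp4fl/fl and 4.20 (SE 0.77, adjusted p = 0.0128) in Fabp4CKO. The other 6 motors changed by 3.62 to 4.81 in Fabp4fl/fl and by 2.94 to 3.77 in Fabp4CKO. These are the microtubule-depolymerizing motors Kif2c and Kif18b, the central spindle motors Kif20a, Kif23 and Kif4, and Cenpe, which carries chromosomes to the spindle equator.

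All 8 spindle proteins rose, with medians of 4.37 in Fabp4fl/fl and 3.41 in Fabp4CKO. Tpx2, which activates Aurora A on the spindle, was at 2.68, 2.93 and 4.31 CPM in Sham-Fabp4fl/fl and 3.40, 3.54 and 4.45 CPM in Sham-Fabp4CKO, and at 55.1, 55.6 and 37.1 CPM in ICH-Fabp4fl/fl and 27.8, 9.12 and 44.5 CPM in ICH-Fabp4CKO. Every ICH library lay above every sham library, and the changes after ICH were 3.92 (SE 0.26, adjusted p = 0.000290) in Fabp4fl/fl and 2.85 (SE 0.56, adjusted p = 0.0155) in Fabp4CKO. Dlgap5, which stabilises spindle microtubules near chromosomes, was at 0.574, 0.663 and 0.578 CPM in Sham-Fabp4fl/fl and 0.189, 0.181 and 0.609 CPM in Sham-Fabp4CKO, and at 13.99, 14.7 and 7.55 CPM in ICH-Fabp4fl/fl and 8.73, 1.76 and 16.8 CPM in ICH-Fabp4CKO. Library 3 of ICH-Fabp4CKO was the highest of all 12, and Dlgap5 was one of the genes whose change was larger in Fabp4CKO, with values of 4.32 (SE 0.35, adjusted p = 0.000350) in Fabp4fl/fl and 4.79 (SE 0.97, adjusted p = 0.0166) in Fabp4CKO. Hmmr, a microtubule-binding protein of the spindle poles whose printed stretch held 4 CCAAT boxes, was at 0.431, 0.221 and 0.788 CPM in Sham-Fabp4fl/fl and 0.284, 0.272 and 0.656 CPM in Sham-Fabp4CKO, and at 17.3, 19.5 and 13.3 CPM in ICH-Fabp4fl/fl and 12.1, 2.61 and 19.6 CPM in ICH-Fabp4CKO. It was at 4 to 15 reads in the sham libraries, and its changes were 5.11 (SE 0.40, adjusted p = 0.000350) in Fabp4fl/fl and 4.82 (SE 0.85, adjusted p = 0.0118) in Fabp4CKO.

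Ckap2 and Ckap2l encode related proteins that bind spindle microtubules. Ckap2 was at 0.718, 0.939 and 0.631 CPM in Sham-Fabp4fl/fl and 0.662, 0.499 and 0.656 CPM in Sham-Fabp4CKO, and at 26.5, 24.9 and 23.7 CPM in ICH-Fabp4fl/fl and 8.60, 4.85 and 13.2 CPM in ICH-Fabp4CKO. The 3 ICH-Fabp4fl/fl libraries were within a 1.12-fold range, the narrowest of the 44 genes, and every ICH-Fabp4CKO library lay below them. The changes after ICH were 5.05 (SE 0.22, adjusted p = 0.000253) in Fabp4fl/fl and 3.88 (SE 0.44, adjusted p = 0.00549) in Fabp4CKO. Ckap2l was at 1.53, 1.38 and 1.58 CPM in Sham-Fabp4fl/fl and 1.18, 1.81 and 1.17 CPM in Sham-Fabp4CKO, and at 28.5, 35.7 and 23.4 CPM in ICH-Fabp4fl/fl and 12.4, 4.75 and 24.0 CPM in ICH-Fabp4CKO. Here library 3 of ICH-Fabp4CKO was within the range of ICH-Fabp4fl/fl, and the changes were 4.30 (SE 0.22, adjusted p = 0.000262) in Fabp4fl/fl and 3.31 (SE 0.62, adjusted p = 0.0134) in Fabp4CKO. The remaining spindle genes were Prc1, which bundles microtubules between the separating chromosomes, at 4.79 (SE 0.28) and 3.47 (SE 0.67), Nusap1, a microtubule binder, at 3.53 (SE 0.28) and 2.44 (SE 0.68), and Aspm, a spindle pole protein, at 4.43 (SE 0.36) and 3.36 (SE 0.66), in Fabp4fl/fl and Fabp4CKO in that order.

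The 7 kinetochore and passenger genes all rose, with medians of 3.75 in Fabp4fl/fl and 2.95 in Fabp4CKO. Ndc80, part of the complex that grips microtubules at the kinetochore, was at 0.0957, 0.221 and 0.841 CPM in Sham-Fabp4fl/fl and 0.142, 0.0907 and 0.422 CPM in Sham-Fabp4CKO, and at 13.4, 12.4 and 3.93 CPM in ICH-Fabp4fl/fl and 4.50, 1.39 and 9.27 CPM in ICH-Fabp4CKO. Its sham counts were 2 to 16 reads, so its fold change rests on few reads, and library 3 of ICH-Fabp4fl/fl lay below library 1 and library 3 of ICH-Fabp4CKO. The changes were 4.69 (SE 0.76, adjusted p = 0.00314) in Fabp4fl/fl and 4.51 (SE 0.89, adjusted p = 0.0156) in Fabp4CKO. Incenp, the scaffold of the passenger complex, was at 11.3, 8.95 and 9.67 CPM in Sham-Fabp4fl/fl and 11.1, 13.4 and 13.2 CPM in Sham-Fabp4CKO, and at 47.4, 40.6 and 28.3 CPM in ICH-Fabp4fl/fl and 33.2, 15.5 and 55.4 CPM in ICH-Fabp4CKO. It was already well above the detection limit in sham tissue, and library 2 of ICH-Fabp4CKO stood only just above the highest sham library. The changes were 1.97 (SE 0.22, adjusted p = 0.000798) in Fabp4fl/fl and 1.48 (SE 0.44, adjusted p = 0.0433) in Fabp4CKO.

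The complex partners of these genes, chosen after their values were seen, rose as well. Nuf2 and Spc25, which form the NDC80 complex with Ndc80, changed by 2.82 (SE 0.24) and 4.9999 (SE 0.35) in Fabp4fl/fl and by 1.86 (SE 0.43) and 3.80 (SE 0.74) in Fabp4CKO. Birc5 and Cdca8, which form the passenger complex with Incenp and Aurkb, changed by 5.26 (SE 0.44) and 3.70 (SE 0.34) in Fabp4fl/fl and by 5.18 (SE 0.84) and 2.77 (SE 0.60) in Fabp4CKO. Cenpf, a large protein of the outer kinetochore, changed by 3.75 (SE 0.42) and 2.95 (SE 0.63). Members of the passenger complex differed in size of change, from 1.97 for Incenp to 6.32 for Aurkb in Fabp4fl/fl, and also in mean level per exon length in Sham-Fabp4fl/fl, which was 2.31 CPM per kb for Incenp and 0.077 CPM per kb for Aurkb.

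**Figure D2:**
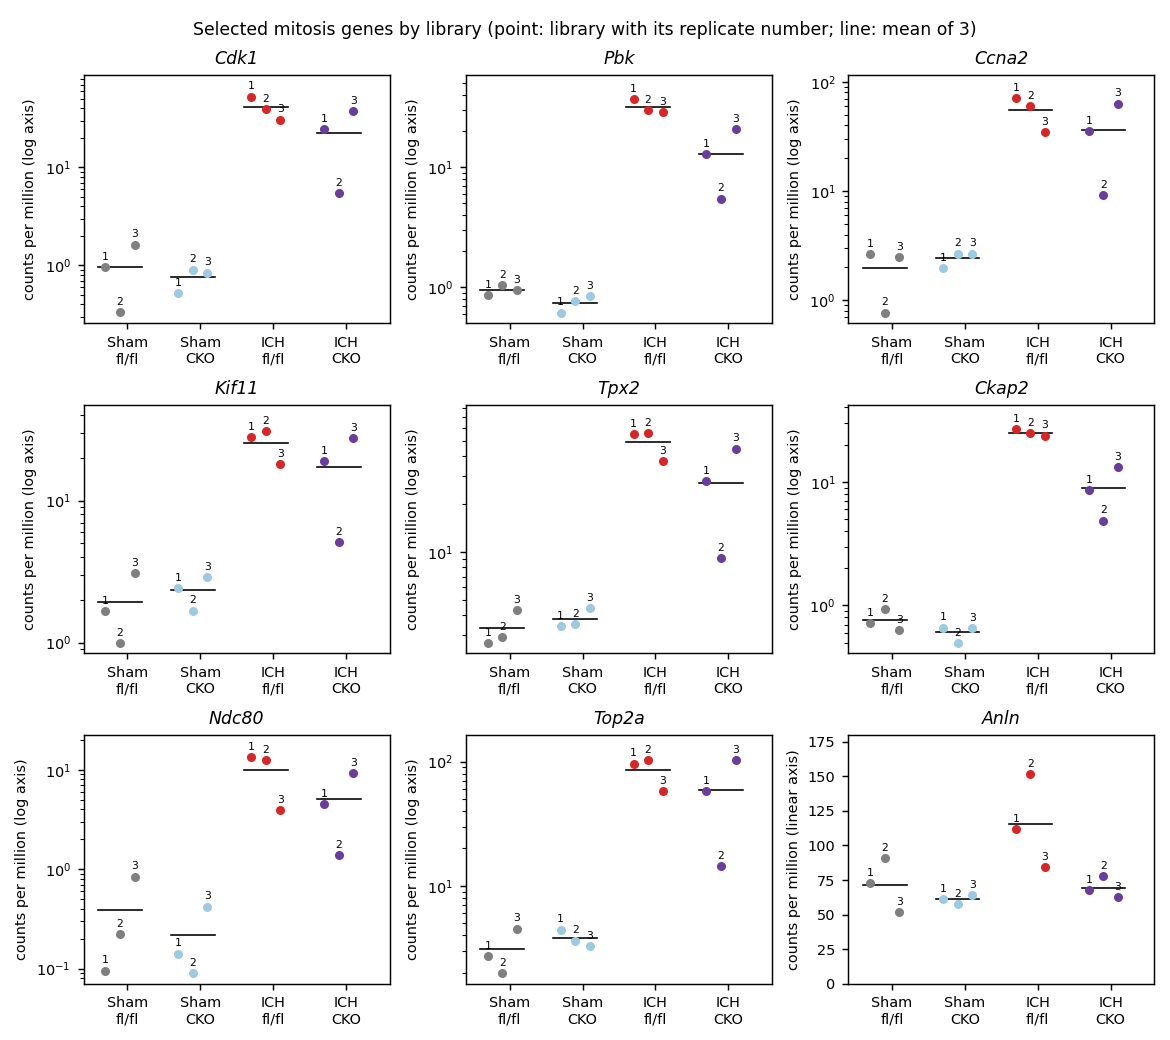
Level in CPM (log axis for 8 genes, linear axis from 0 for Anln) of 9 mitosis genes in the 4 groups, each point 1 library with its replicate number and each line the mean of 3. For 8 genes the ICH points lie above the sham points, library 2 is the lowest ICH-Fabp4CKO point, and for Pbk and Ckap2 every ICH-Fabp4CKO point lies below every ICH-Fabp4fl/fl point, while for Anln the sham and ICH points overlap.

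The 4 chromosome structure genes rose, with medians of 4.95 in Fabp4fl/fl and 3.96 in Fabp4CKO. Top2a, the topoisomerase that untangles sister chromosomes, was at 2.73, 1.99 and 4.52 CPM in Sham-Fabp4fl/fl and 4.44, 3.63 and 3.28 CPM in Sham-Fabp4CKO, and at 96.4, 103 and 58.2 CPM in ICH-Fabp4fl/fl and 57.8, 14.5 and 103 CPM in ICH-Fabp4CKO. Library 3 of ICH-Fabp4CKO stood just above the highest ICH-Fabp4fl/fl library, and the changes were 4.81 (SE 0.37, adjusted p = 0.000345) in Fabp4fl/fl and 3.96 (SE 0.71, adjusted p = 0.0120) in Fabp4CKO. Ncapg, a subunit of the condensin complex that compacts chromosomes, was at 0.335, 0.0552 and 0.631 CPM in Sham-Fabp4fl/fl and 0.284, 0.726 and 0.141 CPM in Sham-Fabp4CKO, and at 14.9, 14.8 and 5.53 CPM in ICH-Fabp4fl/fl and 7.10, 1.17 and 9.93 CPM in ICH-Fabp4CKO. Its sham counts were 1 to 16 reads, and the changes were 5.09 (SE 0.67, adjusted p = 0.00137) in Fabp4fl/fl and 3.97 (SE 0.94, adjusted p = 0.0249) in Fabp4CKO. Ncaph, another condensin subunit, changed by 3.75 (SE 0.26) in Fabp4fl/fl and 3.51 (SE 0.68) in Fabp4CKO. Mki67, which encodes the proliferation marker Ki-67, changed by 5.13 (SE 0.48) and 4.07 (SE 0.87), and was at 2.06, 2.43 and 2.89 CPM in Sham-Fabp4fl/fl and 3.07, 3.95 and 3.61 CPM in Sham-Fabp4CKO, and at 124, 93.6 and 37.1 CPM in ICH-Fabp4fl/fl and 50.4, 9.81 and 117 CPM in ICH-Fabp4CKO. Its ICH libraries ranged from 9.81 to 124 CPM, all above the sham libraries.

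Of the 3 cytokinesis genes, Ect2 and Racgap1 rose and Anln did not pass the test. Ect2, which activates RhoA where the cell will pinch, was at 0.861, 0.994 and 0.946 CPM in Sham-Fabp4fl/fl and 1.18, 1.04 and 1.17 CPM in Sham-Fabp4CKO, and at 17.8, 19.0 and 14.5 CPM in ICH-Fabp4fl/fl and 12.1, 3.04 and 19.98 CPM in ICH-Fabp4CKO. All 6 sham libraries were within 0.861 to 1.18 CPM and all 6 ICH libraries above them, with changes of 4.20 (SE 0.22, adjusted p = 0.000262) in Fabp4fl/fl and 3.38 (SE 0.68, adjusted p = 0.0162) in Fabp4CKO. Racgap1, which forms the centralspindlin complex with Kif23, was at 7.85, 8.84 and 15.5 CPM in Sham-Fabp4fl/fl and 14.2, 13.8 and 15.3 CPM in Sham-Fabp4CKO, and at 54.8, 51.9 and 40.2 CPM in ICH-Fabp4fl/fl and 36.9, 19.7 and 53.3 CPM in ICH-Fabp4CKO. Its sham level per exon length in Fabp4fl/fl, 1.52 CPM per kb, came after those of Anln and Incenp, and its changes were 2.21 (SE 0.28, adjusted p = 0.00116) in Fabp4fl/fl and 1.35 (SE 0.34, adjusted p = 0.0302) in Fabp4CKO.

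Anln encodes anillin, a scaffold of the contractile ring that myelinating oligodendrocytes also make, and it differed from the rest in level and in pattern. It was at 72.6, 90.7 and 51.8 CPM in Sham-Fabp4fl/fl and 61.5, 57.8 and 64.0 CPM in Sham-Fabp4CKO, and at 112, 152 and 84.3 CPM in ICH-Fabp4fl/fl and 67.5, 78.0 and 62.8 CPM in ICH-Fabp4CKO. In Fabp4fl/fl the lowest ICH library overlapped the sham range, and in Fabp4CKO the sham and ICH libraries overlapped. The summed level of 10 mature oligodendrocyte markers was 14549, 15534 and 8891 CPM in Sham-Fabp4fl/fl and 11317, 11517 and 10700 in Sham-Fabp4CKO. After ICH it was 27611, 24640 and 19215 CPM in Fabp4fl/fl and 11579, 11923 and 7554 in Fabp4CKO. Within each genotype after ICH, and in Sham-Fabp4fl/fl, the library with the lowest Anln level also had the lowest oligodendrocyte sum. In Sham-Fabp4CKO the library with the lowest Anln level, library 2, had the highest sum. The part of these cells in the Anln level was not tested. Per exon length, Anln stood at 7.91 CPM per kb in Sham-Fabp4fl/fl, where the next highest, Incenp, stood at 2.31.

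**Figure D3:**
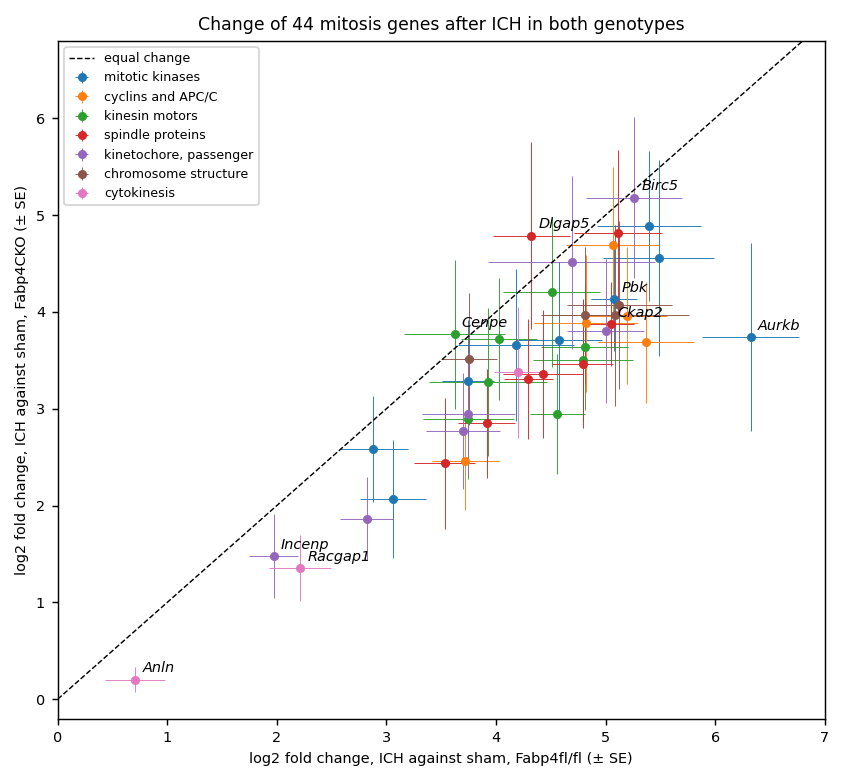
Log2 fold change after ICH in Fabp4fl/fl (horizontal axis) against Fabp4CKO (vertical axis) for the 44 mitosis genes, coloured by role, with standard errors as bars and a dashed line of equal change. Of the 44 points 42 lie below the line, with Dlgap5 and Cenpe above it and Anln nearest to 0 on both axes.

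Across the 44 genes, Pearson's r between the log2 fold changes was 0.869, as a description over genes that share libraries and are no independent replicates. Anln, Incenp and Racgap1, the genes with the highest sham level per exon length in Fabp4fl/fl, had the smallest fold changes of the 44 in both genotypes. After ICH, levels per exon length ran from 0.891 CPM per kb for Kif15 and 1.15 for Cenpf to 14.1 for Ube2c and 17.8 for Pbk in Fabp4fl/fl. The fold change was larger in Fabp4fl/fl for 42 genes, and this difference was tested as the interaction.

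After ICH, all 44 genes had a lower mean in Fabp4CKO than in Fabp4fl/fl, but for none did the difference pass the test. The log2 fold changes ran from -1.501 for Ckap2 to -0.17 for Incenp with a median of -0.76, beside 0.06 over all genes tested, of which 43.8% were below 0. With edgeR's quasi-likelihood F-test 0 of 44 were called, as were 0% of all 14600 genes tested, and the smallest adjusted p was 0.295, for Ckap2. At an unadjusted p under 0.05 the count was 4 of 44, Ckap2, Pbk, Cdc20 and Anln, against 5.82% of all genes lower at that level. The groups did not overlap for 4 of 44, Ckap2, Pbk, Ube2c and Anln, against 9.51% of all genes. The 44 values share the same libraries and are no independent evidence of a direction. Mitochondrial genes took 16.3, 10.4 and 11.9% of the counts in ICH-Fabp4fl/fl and 8.37, 9.496 and 7.90% in ICH-Fabp4CKO, without overlap, against 8.39 to 9.95% in sham tissue, and the part of this in the genotype difference was not tested.

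The values for the genes at the front of that order were as follows. Ckap2 differed by -1.501 (SE 0.36, adjusted p = 0.295), Pbk by -1.30 (SE 0.45, adjusted p = 0.355), Cdc20 by -1.24 (SE 0.50, adjusted p = 0.398) and Anln by -0.74 (SE 0.24, adjusted p = 0.350). Ckap2l, the relative of Ckap2, differed by -1.09 (SE 0.54, adjusted p = 0.461). With DESeq2, Ckap2 was called as lower (log2 fold change -1.53, adjusted p = 0.00852), 1 of 44, against 1.62% of all genes. With all 12 libraries in 1 edgeR fit Ckap2 was called as well (-1.56, adjusted p = 0.0342), 1 of 44, against 1.38% of all genes.

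**Figure D4:**
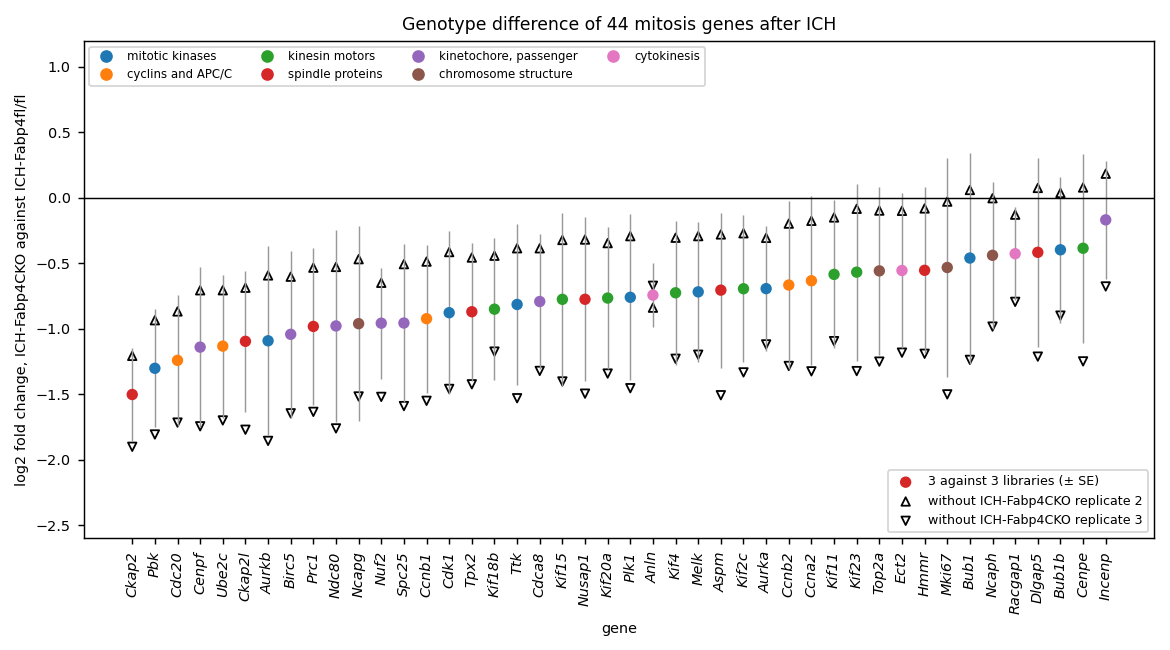
Log2 fold change of ICH-Fabp4CKO against ICH-Fabp4fl/fl (vertical axis) for each of the 44 mitosis genes (horizontal axis, ordered by value, coloured by role), with standard errors as bars and, as open triangles, the value without library 2 or without library 3 of ICH-Fabp4CKO. All 44 filled points lie below 0, the median moves from -0.76 to -0.32 without library 2 and to -1.37 without library 3, and 5 genes lie above 0 without library 2.

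The size of the genotype difference turned on single ICH-Fabp4CKO libraries. Without library 2 the median was -0.32, 5 genes had an unadjusted p under 0.05 (7.50% of all genes were lower at that level), 39 genes were below 0 and Bub1, Bub1b, Cenpe, Dlgap5 and Incenp were above it, and the sum over the 43 genes was 0.815 times that of ICH-Fabp4fl/fl in place of 0.604 times. Without library 3 the median was -1.37 and 20 of 44 genes had an unadjusted p under 0.05, beside 3.79% of all genes. Without library 1, the one with 1 Y-linked read, it was -0.77 and 1 gene had an unadjusted p under 0.05, beside 3.90% of all genes. None of the 44 passed the adjusted threshold in any of these fits. Ckap2 stayed between -1.21 and -1.90 in them, and Pbk between -0.93 and -1.81.

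By role, the median genotype difference after ICH was -0.76 for the kinases, -0.92 for the cyclins and APC/C partners, -0.71 for the motors, -0.82 for the spindle proteins, -0.96 for the kinetochore and passenger genes, -0.54 for the chromosome structure genes and -0.55 for the cytokinesis genes. None of the 7 role groups held a gene past the adjusted threshold. The role groups' ranges overlapped, and differences between them were not tested.

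In sham tissue none of the genes tested passed the threshold between the genotypes. Of the 44 genes 36 passed the filter on low counts in the sham comparison, the other 8 being Aurkb, Bub1, Ttk, Ccnb2, Kif15, Hmmr, Ndc80 and Ncapg. The median log2 fold change of Sham-Fabp4CKO against Sham-Fabp4fl/fl was 0.17 over the 36, beside 0.00 over all genes tested, and 0 were called, against 0.111% of all 14395 genes called as lower. At an unadjusted p under 0.05 the count was 2 of 36, Kif20a (0.85, SE 0.32) and Mki67 (0.52, SE 0.22), both higher, against 4.15% of all genes higher at that level, and DESeq2 called 0. The libraries did not overlap for 3 genes that were higher in Sham-Fabp4CKO, Kif20a, Mki67 and Ect2 (6.79% of all genes), and for 2 that were lower, Pbk and Birc5 (8.07% of all genes). Without library 3 of Sham-Fabp4fl/fl, Racgap1 was called as higher and Anln as lower, 1 of 38 each, beside 10.5% and 9.12% of all genes, so the members' shares were below those of the table. That library had the highest summed level of the 43 genes among the 3, the lowest Anln level and the lowest oligodendrocyte marker sum of the sham libraries, and the part of its tissue composition was not tested.

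The interaction of ICH and genotype asks whether the change after ICH itself differed between the genotypes. It was below 0, a smaller rise in Fabp4CKO, for 42 of 44 genes with a median of -0.94, beside 0.03 over all genes tested. With edgeR's quasi-likelihood F-test on all 12 libraries 0 of 44 were called, against 0.00663% of all 15089 genes called as lower, and DESeq2 called 0 of 44. The smallest adjusted p was 0.435, for Ckap2 (-1.21, SE 0.49). Ckap2, Kif20a (-1.66, SE 0.69) and Aurkb (-2.64, SE 1.196) had an unadjusted p under 0.05, 3 of 44, against 4.37% of all genes lower at that level. The standard errors of the 44 ran from 0.33 to 1.43. Without library 3 of ICH-Fabp4CKO 21 of 44 had an unadjusted p under 0.05, beside 3.65% of all genes, and without library 2 the count was 5, beside 9.07%. In either fit 0 of 44 passed the adjusted threshold, while without library 2 the fit called 260 of all genes as higher and 111 as lower.

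Other genes of mitosis, from a list of 60 that holds none of the 44, were tested alongside. In Fabp4fl/fl 52 of 60 were higher and 2 lower (26.2% of all genes tested were higher and 19.3% lower), with a median of 3.01. Those with the smallest p were Gtse1, a microtubule-binding protein, at 4.42 (SE 0.31), and Sgo2a, which protects the cohesion of centromeres, at 3.91 (SE 0.29). The genes that fell were Zwint, a kinetochore protein that neurons also make, at -0.96 (SE 0.20), and Cit, the citron kinase of the contractile ring, at -1.54 (SE 0.39). In sham tissue both stood above all of the 44, Zwint at 1014 to 1248 CPM and Cit at 141 to 186 CPM. Which cells these reads came from was not tested. In Fabp4CKO 44 of 58 tested were higher and 2 lower (24.5% of all genes tested were higher and 11.1% lower), with a median of 2.43. The same pair fell, Cit at -1.37 (SE 0.24) and Zwint at -1.19 (SE 0.35). Kif18a, a motor that damps chromosome movements, rose by 2.54 (SE 0.32) and Trip13, which takes the checkpoint apart, by 3.44 (SE 0.50) there. Between the genotypes after ICH 0 of 60 were called and the median was -0.61. At an unadjusted p under 0.05, 5 were lower, against 5.82% of all genes.

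The neighbouring steps of the cell cycle were read from lists of their own, beside 26.2% of all genes tested that were higher in Fabp4fl/fl and 24.5% in Fabp4CKO. All 20 DNA replication genes were higher in both genotypes, with medians of 2.63 in Fabp4fl/fl and 2.30 in Fabp4CKO, and those with the smallest p were, in Fabp4fl/fl, Rrm2, a ribonucleotide reductase subunit, at 4.75 (SE 0.30) and Tk1, thymidine kinase, at 5.26 (SE 0.35), and in Fabp4CKO Gins2, a helicase subunit, at 2.35 (SE 0.33) and Mcm3, another, at 3.57 (SE 0.52). Of 8 G1 cyclins and CDKs 6 were higher in each genotype, among them Ccnd1, cyclin D1, at 2.59 (SE 0.21) and 1.99 (SE 0.32), Ccnd3, cyclin D3, at 1.87 (SE 0.23) in Fabp4fl/fl and Cdk2 at 2.96 (SE 0.50) in Fabp4CKO. CDK inhibitors were higher for 3 of 6 tested in Fabp4fl/fl and 2 of 6 in Fabp4CKO, with Cdkn2c at 3.48 (SE 0.35) and 2.92 (SE 0.46) and Cdkn1a, the gene of p21, at 2.82 (SE 0.35) and 2.96 (SE 0.42). None of these lists had a gene called between the genotypes after ICH.

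Of 20 cell cycle transcription genes 14 were higher and 1 lower in Fabp4fl/fl, and 11 were higher and 0 lower in Fabp4CKO. For this list and the next, the shares of all genes tested were 26.2% higher and 19.3% lower in Fabp4fl/fl. In Fabp4CKO they were 24.5% and 11.1%. Foxm1, a factor that binds CHR promoters with the MuvB complex, changed by 4.01 (SE 0.23) in Fabp4fl/fl, and E2f8, a repressor of the E2F family, by 5.01 (SE 0.33). Foxm1 was at 1.82 to 2.36 CPM in Sham-Fabp4fl/fl and 37.4, 38.2 and 25.5 CPM in ICH-Fabp4fl/fl. In ICH-Fabp4CKO it was at 17.1, 5.87 and 29.8 CPM, the same order of libraries as for the 43 genes. The lower gene was Lin52, a MuvB subunit, at -0.50 (SE 0.16). In Fabp4CKO those with the smallest p were Myc at 2.59 (SE 0.36) and E2f8 at 4.17 (SE 0.71). Of 15 core APC/C genes, which dividing and resting cells share, 4 were higher in Fabp4fl/fl, near the 26.2% of all genes, among them Anapc13 at 0.65 (SE 0.22) and Anapc11 at 0.45 (SE 0.15), and 1, Fzr1, the gene of the APC/C activator Cdh1, was lower at -0.36 (SE 0.13). In Fabp4CKO 0 were higher and Fzr1 was lower at -0.41 (SE 0.12).

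**Figure D5:**
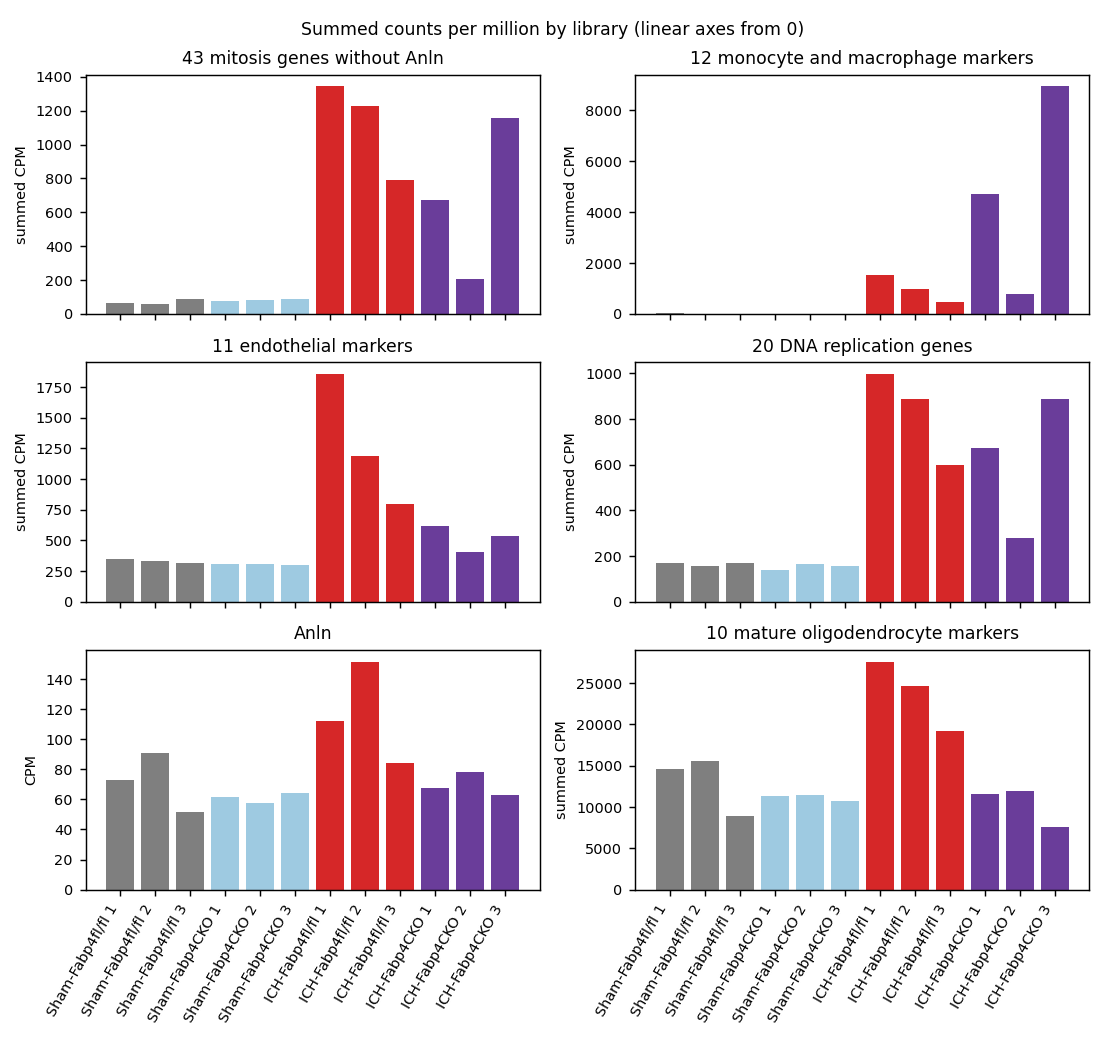
Summed CPM (vertical axes, linear from 0) in each of the 12 libraries (horizontal axis) for the 43 mitosis genes other than Anln, for 4 gene lists and for Anln alone, coloured by group. The 43 genes and the DNA replication genes share the order of the 6 ICH libraries at its ends, the monocyte and macrophage markers are highest in libraries 1 and 3 of ICH-Fabp4CKO, and the endothelial markers are highest in ICH-Fabp4fl/fl.

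Markers of several cell types were higher after ICH. The summed level of 12 monocyte and macrophage markers was 6.70 to 51.9 CPM in sham tissue, 1510, 974 and 458 CPM in ICH-Fabp4fl/fl and 4713, 771 and 8964 CPM in ICH-Fabp4CKO. Within each genotype after ICH these sums stood in the same order of libraries as the sum over the 43 genes, but between genotypes the order was not kept, since libraries 1 and 3 of ICH-Fabp4CKO had the highest marker sums and not the highest mitosis sums. All 12 markers were higher after ICH in each genotype, against 26.2% of all genes tested in Fabp4fl/fl and 24.5% in Fabp4CKO. Microglial markers summed to 485 to 574 CPM in sham tissue, 1903 to 2100 CPM in ICH-Fabp4fl/fl and 2026 to 5283 CPM in ICH-Fabp4CKO, and 10 of the 11 in the table were higher in each genotype. Neutrophil markers summed to 57.8 to 121 CPM in ICH-Fabp4fl/fl and 79.9 to 399 CPM in ICH-Fabp4CKO.

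The summed endothelial and mature oligodendrocyte markers were lower in every ICH-Fabp4CKO library than in every ICH-Fabp4fl/fl library. The same held, by a narrow margin, for the summed oligodendrocyte precursor markers. The 11 endothelial markers summed to 303 to 349 CPM in sham tissue, to 1858, 1185 and 798 CPM in ICH-Fabp4fl/fl and to 615, 409 and 538 CPM in ICH-Fabp4CKO. All 11 were higher after ICH in Fabp4fl/fl and 6 in Fabp4CKO, against 26.2% and 24.5% of all genes tested. Between the genotypes after ICH 10 of 11 had an unadjusted p under 0.05 as lower, with a median of -1.26 and 0 past the adjusted threshold. Of the 10 mature oligodendrocyte markers 9 had an unadjusted p under 0.05 as lower, with a median of -1.17 and 0 past the adjusted threshold. Among all genes tested 5.82% were lower at that unadjusted level. Astrocyte markers summed to 5922 to 8159 CPM and 6044 to 8350 CPM after ICH in the 2 genotypes, oligodendrocyte precursor markers to 880 to 1142.5 CPM and 744 to 870 CPM, and pericyte markers to 427 to 684 CPM and 295 to 950 CPM. A large part of the pericyte sum in ICH-Fabp4CKO came from 1 gene, Anpep, at 202, 27.0 and 419 CPM there. In ICH-Fabp4fl/fl Anpep was at 40.7, 26.1 and 18.1 CPM. Of 10 neuron markers 5 were called as lower after ICH in Fabp4fl/fl and 1 in Fabp4CKO, against 19.3% and 11.1% of all genes tested. Neuron markers summed to 5138 to 6822 CPM in sham tissue, to 1714, 2805 and 4682 CPM in ICH-Fabp4fl/fl and to 2597, 5226 and 1865 CPM in ICH-Fabp4CKO. Within each ICH group these sums ran in the reverse order of the mitosis sum, and library 2 of ICH-Fabp4CKO lay within the sham range. The part of any of these cell types in the level of the mitosis genes was not tested.

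The remaining marker lists were those of lymphocytes, neuroblasts, ependymal cells and blood. Their counts stand beside shares of all genes tested of 26.2% higher and 19.3% lower in Fabp4fl/fl. In Fabp4CKO these shares were 24.5% higher and 11.1% lower. Of 10 T and NK cell markers 6 of 8 tested were higher in Fabp4fl/fl and 2 of 4 in Fabp4CKO. Of 8 neuroblast markers 1 was higher and 3 lower in Fabp4fl/fl, and 2 were higher in Fabp4CKO, near the share of all genes. Of 6 ependymal markers 1 was higher and 3 lower in Fabp4fl/fl, and 2 were lower in Fabp4CKO. Erythroid genes, which mark blood in the tissue, summed to 17.3 to 166 CPM in sham tissue, 175 to 583 CPM in ICH-Fabp4fl/fl and 122 to 1125 CPM in ICH-Fabp4CKO. Of these genes 3 of 5 tested were higher in Fabp4fl/fl and 0 in Fabp4CKO. There 3 were higher at an unadjusted p under 0.05, as were 4460 of all 14737 genes tested.

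The annotation carried by the table places the genes in cell division. A GO process term that names cell division was attached to 29 of the 44 genes (65.9%), against 2.2% of all 21956 genes, and a term that contains the word mitotic to 36 (81.8%), against 3.94%. The genes were chosen for these functions, and these shares describe the choice.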

How the data were processed

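Poly(A) RNA of 12 mouse brain libraries was sequenced. The deposited table holds expected counts per gene that the authors estimated and that are not all whole. Per the labels, the submitters' processing notes name Bowtie2 2.2.8, HISAT2, StringTie 1.3.1 and DESeq2, and the counter, its settings and the genome build are not given in the sources used here. The counts were rounded and tested with edgeR 4.0.16 (R 4.3.3) by the quasi-likelihood F-test with TMM scaling, after filterByExpr (minimum count 10, minimum total 15), with Benjamini-Hochberg adjustment over all genes tested and a threshold of 0.05. Each comparison was fitted on its own 6 libraries and the interaction on all 12. The standard error was the log2 fold change divided by the root of F. Total counts of 15650822 to 22406226 set the precision, and sham levels of a few reads are the least precise. Exon lengths came from the union of annotated exons. The script was tested on simulated counts. Alternatives were RLE scaling, DESeq2 1.42.0, no filter, at least 10 counts in every library, a replicate block, all 12 libraries in 1 fit and leaving out each library. Values in every library were given for the genes with the highest and lowest mean CPM in each role and those not called after ICH. Such values were also given for those removed by a filter on low counts, and for Pbk, Ckap2 and Ckap2l. Of each other cell cycle list, the 2 genes of smallest p per direction were named. That rule was set for the cell type marker lists too, but these were read as sums or counts instead. Any further gene was picked with its values in view. The members and lists, including the cell cycle and cell type marker lists, were chosen with earlier results of these data known. Figures were drawn with matplotlib 3.10.9.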

Additional observations from a re-analysis of the deposited data

How the results depend on the processing

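The 43 genes called as higher after ICH in Fabp4fl/fl stayed between 43 and 44 under each alternative except the filter of at least 10 counts in every library, which tested 28 and called 27, with a median of 3.85. All 44, Anln among them, were called under the replicate block, with all 12 libraries in 1 fit and without ICH-Fabp4fl/fl replicate 3. In Fabp4CKO the count ranged from 2 to 43 when 1 library was left out, and that over all genes from 701 to 5203. Between the genotypes after ICH, DESeq2 called 1 gene and the fit of all 12 libraries called 1, Ckap2 in both. In sham tissue the count ranged from 0 to 1 higher and from 0 to 1 lower, and the median from -0.033 to 0.46, when 1 library was left out. With 1 ICH library left out, the genotype difference after ICH ranged from -1.24 to 0.060 for Bub1, from -1.21 to 0.076 for Dlgap5 and from -0.68 to 0.18 for Incenp. It was above 0 for these genes without ICH-Fabp4CKO replicate 2, and for Incenp also without ICH-Fabp4fl/fl replicate 1 (0.0051). The cause was not tested.

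The labels do not say whether replicate numbers pair the samples. Correlations of same-numbered libraries' deviations ran from -0.575 to 0.311, and those of other pairs from -0.556 to 0.641. For ICH against sham in Fabp4fl/fl they were 0.0228 to 0.197 for same-numbered libraries and -0.189 to 0.0319 for the others. With 3 libraries per group these values cannot decide about pairing. Under a replicate block, the fits called 44 genes as higher after ICH in Fabp4fl/fl and 37 in Fabp4CKO, beside 27.0% and 17.5% of all genes, with medians of 4.43 and 3.39. The block gave 0 calls between the genotypes after ICH (median -1.01), 0 in sham tissue (median 0.23) and 0 for the interaction (median -1.20). Sham counts of a few reads limit the fold changes of Aurkb, Bub1, Ndc80, Ncapg, Ttk and Kif15, among others. In Sham-Fabp4CKO Birc5 had 2, 10 and 9 reads and Dlgap5 had 4, 4 and 13, which limits their changes in Fabp4CKO.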
